A study of Arabidopsis thaliana with 6 samples.

Results

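The 5 DELLA genes of Arabidopsis thaliana, GAI, RGA, RGL1, RGL2 and RGL3, were examined for sites occupied by JAGGED (JAG), a zinc finger transcription factor needed for leaves, sepals and petals to grow to their full size and shape. Every peak whose summit, the position of its maximum, lay in one of these genes or within 5000 bp of it was taken. The rule found 16 of the 6890 peaks, 6 in the list of replicate 1, 6 in that of replicate 2 and 4 in that of replicate 3. Of these, 9 lay within 3000 bp of the gene. The 5 genes stand among 27444 nuclear protein-coding genes.

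DELLA proteins are nuclear repressors of growth that belong to the GRAS family of transcriptional regulators. The hormone gibberellin (GA) binds a GID1 receptor, the receptor then binds the DELLA protein, and the F-box protein SLY1 marks the DELLA protein for degradation, so that GA releases growth by removing a brake. GAI and RGA are known as the main DELLA repressors of stem elongation, RGL2 as the main one of seed germination, and RGA, RGL1 and RGL2 act together on the growth of petals and stamens. RGL3 is known mainly from jasmonate and stress responses.

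The study had 3 JAG-GFP samples, which carried a genomic fusion of JAG and green fluorescent protein (GFP) under the JAG promoter in the jag-2 mutant, and 3 samples of wild-type Landsberg erecta, which lacks the tag. Chromatin of inflorescence tips with unopened buds was precipitated with an antibody to GFP and sequenced. The fusion reports only where JAG itself is expressed, and the tissue holds all cell types of the bud. The 3 deposited peak lists carry replicate numbers. No label states that the replicates were separate harvests, and the variation between lists may therefore be technical.

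The lists held 2620, 2143 and 2127 peaks for replicates 1, 2 and 3, with median scores of 2.04, 2.08 and 2.12 and lowest scores of 1.86, 1.89 and 1.87. The score is the authors' own value for each peak, on an unstated scale, and scores are given per list with their place in that list. The peaks over the JAG locus, which the transgene duplicates, had the highest scores of the lists of replicates 1 and 2 (14.54 and 16.96). Replicate 3 has no chromosome 1 peak beyond 23827070, so RGL1, which lies past that position, could be examined in 2 lists only. Read depth was not analysed here, and a gene without a peak is one with no listed peak, not one shown to be unbound.

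Sites recurred near 4 of the 5 DELLA genes and differed widely in where they lay. RGL2 had a site at the edge of its gene in all 3 lists, and RGA had one 1547 to 1566 bp beyond its gene in all 3 lists. GAI had a site just over 3000 bp away in all 3 lists, and RGL1 had a site almost 4 kb away in both lists that cover it. RGL3 had a peak in 1 list only, in its gene body. A peak of at least 1 list thus lay within 5000 bp of all 5 genes, as it did for 35.5% of all protein-coding genes. Within 3000 bp, 2 of the 5 genes, RGA and RGL2, had a summit in every list that covers them, against 7.08% of all protein-coding genes. Within 5000 bp the count was 4 of 5, against 11% of all protein-coding genes.

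**Figure D1:**
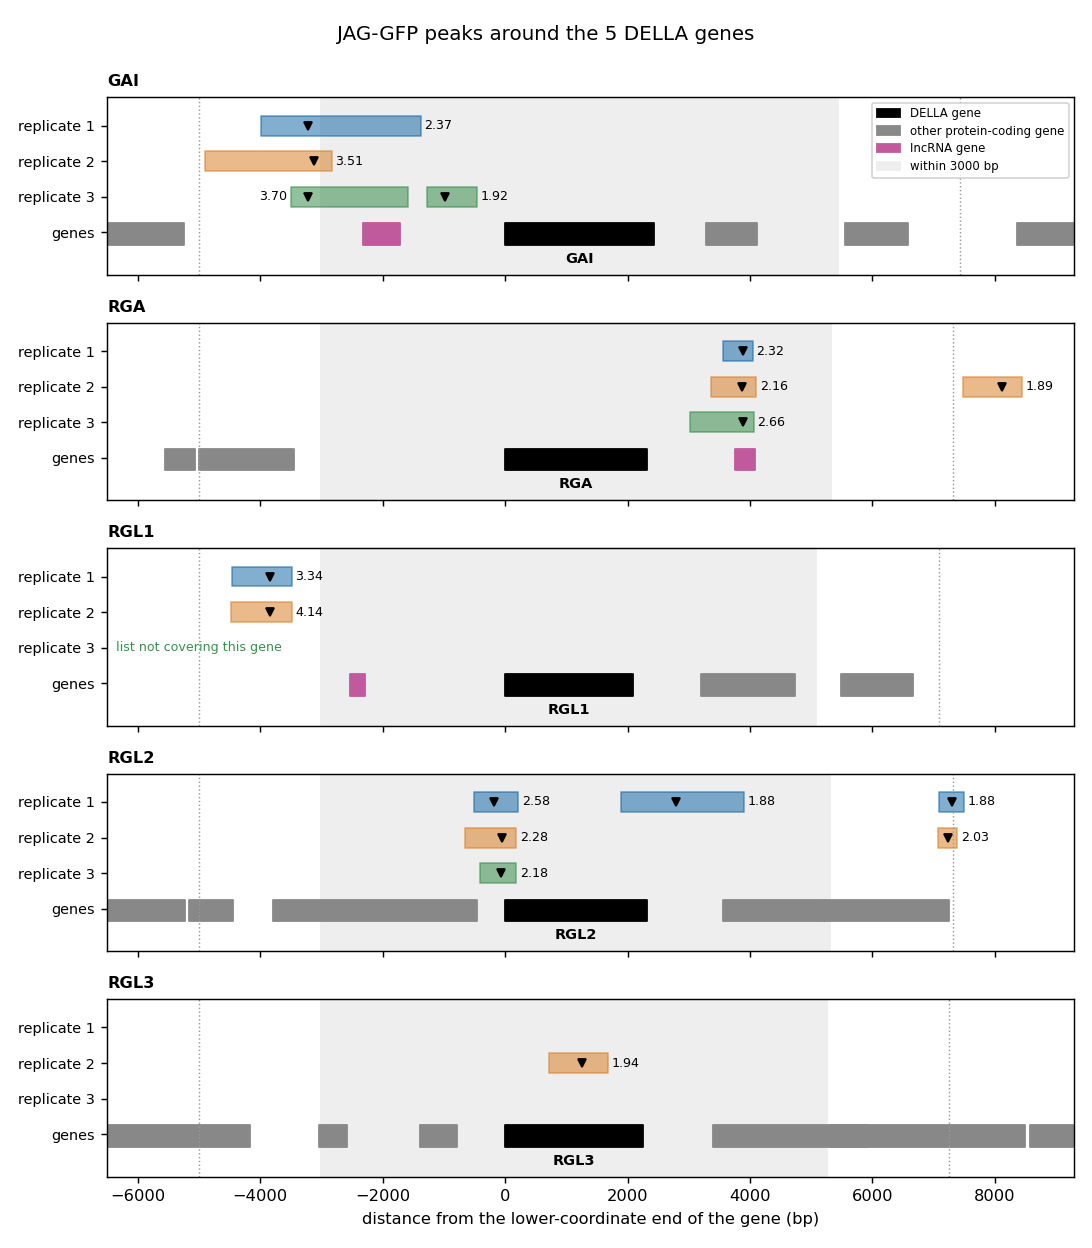
Peaks of the 3 lists around each DELLA gene, drawn to scale with distance in bp from the lower-coordinate end of the gene on the x axis, and one row per list plus a row of genes. Bars are peaks, triangles their summits and printed numbers the authors' scores. The shaded area reaches 3000 bp and the dotted lines 5000 bp from the gene. The site of RGL2 sits at the gene's edge, and that of RGA lies over an lncRNA gene. The recurrent site of RGL1 lies outside the shaded area. At the recurrent site of GAI the summits lie outside the shaded area, but the peaks reach into it. A weaker GAI peak of replicate 3 lies inside it. RGL3 has a single peak, in its gene body.

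The same peaks were also counted as pairs of a member and a list, which adds no separate evidence. A DELLA gene had a summit within 5000 bp in 12 of 14 such pairs, against 21.9% of all pairs of a protein-coding gene and a covering list. Within 3000 bp it had one in 8 of 14 pairs, against 15.4% of all pairs. The 5 genes were chosen with results of these data known, so no test was made of either count. The sources used here do not give which wild-type sample each list was compared with, and the part of a common control in the sharing of peaks was not tested.

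RGL2 (AT3G03450), the repressor best known from seed germination, had the closest site of those found in every covering list. The peak of replicate 1 ran from 818823 to 819547 on chromosome 3 (build TAIR10) with a score of 2.58. In the list of replicate 2 the peak ran from 818675 to 819518 with a score of 2.28, and in that of replicate 3 from 818925 to 819516 with a score of 2.18. All 3 peaks overlapped the lower-coordinate edge of the gene, and their summits lay outside it by 187, 52 and 63 bp in replicates 1, 2 and 3. These scores placed the site at rank 267 of 2620, 613 of 2143 and 935 of 2127. The mean score was 2.35 ± 0.21 (SD, n = 3 lists), which put the region at rank 444 of the 869 regions that held a peak of all 3 lists. The site was thus near the middle of the recurrent regions. It sat in a gap of 460 bp between RGL2 and AT3G03440, which also lies within 3000 bp of the summit. The median gap between protein-coding genes was longer, at 877 bp.

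Other peaks near RGL2 were weaker and recurred less. A peak of replicate 1 (821234 to 823230, score 1.88) covered the other edge of the gene and part of AT3G03460, with its summit 482 bp outside RGL2. No peak of the other 2 lists overlapped it. Near the outer limit of 5000 bp, replicates 1 and 2 had overlapping peaks with scores of 1.88 and 2.03 at 4989 and 4913 bp from RGL2. The summit of replicate 2 lay in CYP89A9, a cytochrome P450 gene, and that of replicate 1 lay 56 bp outside it, so this region was closer to CYP89A9 than to RGL2. Of the 339 peaks in the list of replicate 1 with a score of 1.88, 14.5% were in a region of every covering list.

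RGA (AT2G01570), which with GAI restrains stem elongation, had its site on the higher-coordinate side. The peak of replicate 1 ran from 258803 to 259291 on chromosome 2 with a score of 2.32. In the list of replicate 2 it ran from 258613 to 259346 with a score of 2.16, and in that of replicate 3 from 258267 to 259307 with a score of 2.66. The summits lay 1566, 1547 and 1566 bp from the gene in replicates 1, 2 and 3. They were thus within 19 bp of each other, and 91.9% of the 869 regions had a wider spread of summits. All 3 summits fell inside AT2G04015, which the gene table lists as a long non-coding RNA (lncRNA) gene. RGA was the nearest protein-coding gene to all 3 summits, and no other protein-coding gene lay within 3000 bp of them. The mean score of 2.38 ± 0.26 (SD, n = 3 lists) put the region at rank 422 of 869, close to that of RGL2. A further peak of replicate 2 (score 1.89, the lowest score of that list) lay just outside the limit, at 5789 bp.

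GAI (AT1G14920), the closest partner of RGA in stem elongation, had a stronger and wider site. The peak of replicate 1 ran from 5144994 to 5147600 on chromosome 1 with a score of 2.37. In the list of replicate 2 it ran from 5144077 to 5146151 with a score of 3.51, and in that of replicate 3 from 5145477 to 5147394 with a score of 3.70. The score in replicate 1 stood apart from the other two. The ranks were 442 of 2620, 54 of 2143 and 92 of 2127, so the site was among the strongest of the lists of replicates 2 and 3 but not of replicate 1. The mean was 3.19 ± 0.72 (SD, n = 3 lists), at rank 91 of 869. The SD was larger than that of 96.0% of the 869 regions, whose median SD was 0.24. However, 89.5% of the 869 had a lower mean score than GAI, and SDs were not compared at like scores. Replicate 1 had the lowest of the 3 scores in 46.5% of the 869 regions.

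The GAI site fell just outside the 3000 bp window in every list. Its summits lay 3219, 3122 and 3215 bp from the gene in replicates 1, 2 and 3, on the lower-coordinate side. The nearest protein-coding gene was AT1G14910, at 2028, 2125 and 2032 bp from those summits. With widths of 2607, 2075 and 1918 bp the peaks were wider than 94.9%, 92.1% and 88.9% of their lists. The peaks of replicates 1 and 3 reached over the lncRNA gene AT1G05133, and that of replicate 2 did not. When any part of a peak within 3000 bp was counted in place of its summit, GAI was included and the count was 3 of the 5 DELLA genes, against 8.23% of all protein-coding genes. Nearer to the gene, replicate 3 alone had a peak with a score of 1.92 (5147702 to 5148528), whose summit lay 981 bp from GAI.

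RGL1 (AT1G66350) had the highest scores of the family. The peak of replicate 1 ran from 24743651 to 24744615 on chromosome 1 and scored 3.34. In the list of replicate 2 it ran from 24743628 to 24744615 and scored 4.14. The peaks ended at the same base and their summits were 15 bp apart. They ranked 54 of 2620 and 26 of 2143. The mean was 3.74 ± 0.57 (SD, n = 2 lists), at rank 6 of the 114 regions found in both lists on this end of chromosome 1. The site was also the most distant of the 4, at 3834 and 3849 bp from RGL1 in replicates 1 and 2 on the lower-coordinate side. RGL1 was still the nearest protein-coding gene, and no protein-coding gene lay within 3000 bp of either summit. Counting this gene on 2 lists makes a call easier. On this end of chromosome 1, 18.2% of genes had a summit within 5000 bp in both lists, against 10.5% with one in each of 3 lists elsewhere.

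RGL3 (AT5G17490), known from jasmonate responses, had no recurrent site. Its only peak was in the list of replicate 2, from 5764713 to 5765663 on chromosome 5, with a score of 1.94. The summit lay in the gene body. The peak ranked 1567 of 2143, and of the 196 peaks with that score in the list of replicate 2, 25.0% were in a region of every covering list. The lists of replicates 1 and 3 had no peak within 15 kb of RGL3. A summit in the gene body in exactly 1 list was found for 3.81% of the genes that 3 lists cover.

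Ordered by mean, the highest scores within 5000 bp ran RGL1, GAI, RGA, RGL2 and RGL3. RGL1 scored above GAI in both of its lists, 3.34 against 2.37 in replicate 1 and 4.14 against 3.51 in replicate 2. GAI scored above RGA in each list, with 2.37, 3.51 and 3.70 against 2.32, 2.16 and 2.66 in replicates 1, 2 and 3. RGA was below RGL2 in replicates 1 and 2 and above it in replicate 3. Across lists, the ranges of neighbours mostly overlapped. The scores of RGL1 (3.34 to 4.14) overlapped those of GAI (2.37 to 3.70). GAI's lowest score, in replicate 1, lay inside the range of RGA (2.16 to 2.66), and RGA overlapped RGL2 (2.18 to 2.58). RGL3 alone lay below its neighbour, with its 1 value of 1.94 under the lowest of RGL2. In the list of replicate 2, the only one with a peak for all 5 genes, the scores were 4.14 for RGL1, 3.51 for GAI, 2.28 for RGL2, 2.16 for RGA and 1.94 for RGL3. The order of replicates within a gene differed between genes. Replicate 3 was highest at GAI and RGA, as in 55.9% of the 869 regions, while at RGL2 replicate 1 was highest, as in 19.9%.

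**Figure D2:**
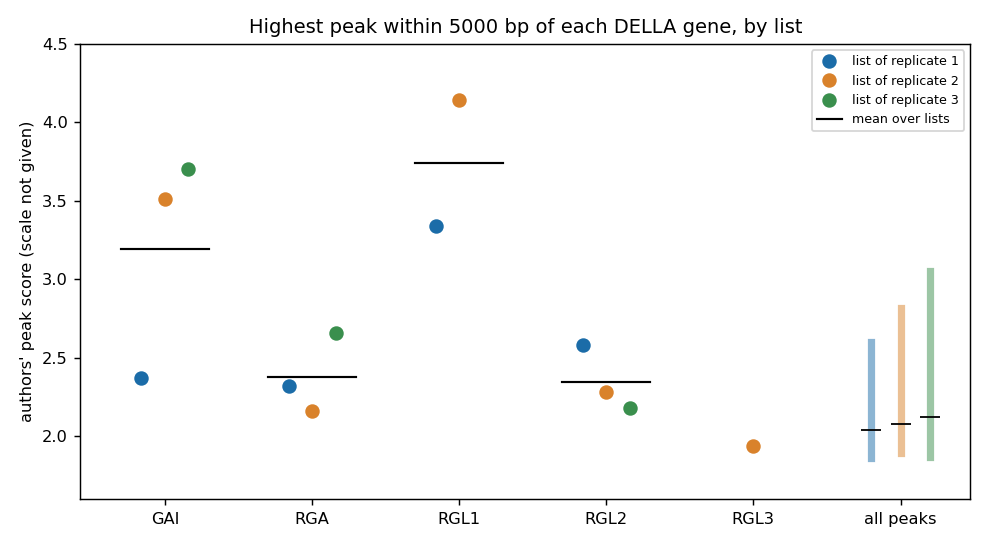
Authors' peak score on the y axis for the highest peak within 5000 bp of each DELLA gene, with one point per list and a black line for the mean over lists. At the right, each bar runs from the lowest score of a list to its 90th percentile (2.6, 2.82 and 3.05 for replicates 1, 2 and 3), with a black mark at the list's median. RGL1 lies above the bars in both of its lists and GAI in replicates 2 and 3, while RGA, RGL2 and RGL3 lie within them.

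The recurrent sites of GAI, RGA and RGL1 lay in long stretches without protein-coding genes. A summit far from its nearest genes has to lie in a long gap, so gap length is a description that follows in part from the distances above. The gap between protein-coding genes was 8751 bp at the RGL1 site, 7453 bp at the RGA site and 5246 bp at the GAI site. These were longer than 96.4%, 95.3% and 91.6% of all 23810 such gaps. Recurrent regions in general lay in long gaps, with a median of 3332.5 bp over the 720 whose summit lay between genes. Among those, the gaps of RGL1, RGA and GAI were longer than 91.2%, 85.4% and 72.4%. The recurrent RGL2 site lay in a 460 bp gap, and the region of 2 lists near CYP89A9 in one of 1649 bp, longer than 67.3% of all gaps. Longer gaps also hold more positions, and the comparisons with all gaps made no allowance for that. The part that gap length has in the counts was not tested.

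**Figure D3:**
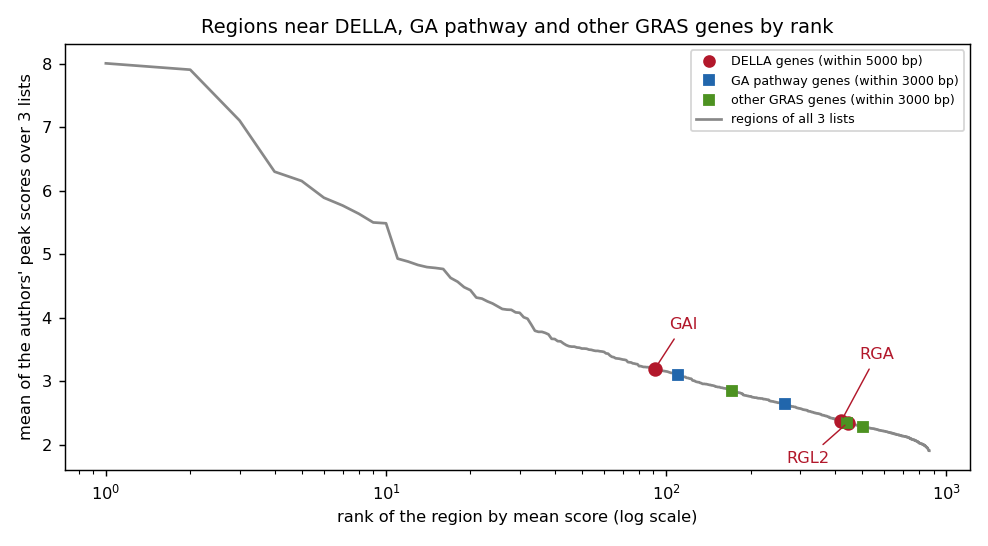
Mean of the authors' scores over 3 lists on the y axis for the 869 regions held by all 3 lists, by rank on a log scale on the x axis. Red circles are the regions of GAI, RGA and RGL2, drawn within 5000 bp of the gene. Blue squares are regions of GA pathway genes and green squares those of other GRAS genes, drawn only within 3000 bp. The GAI region, with its summit beyond 3000 bp, would not be drawn under the rule of the squares. GAI stands at rank 91, whereas RGA and RGL2 stand near the middle, at ranks 422 and 444.

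Genes that make, inactivate or perceive GA were examined to see whether sites extended to the rest of the pathway. Here a gene was counted by a region that held overlapping peaks of all covering lists. This rule also gave 2 of 5 DELLA genes within 3000 bp. Of 25 genes of the pathway, 3 (12%) had such a region within 3000 bp, against 6.56% of all protein-coding genes. They were GA20OX2, which encodes a late enzyme of GA synthesis, and GA2OX8 and GA2OX1, which encode enzymes that inactivate GA. GA20OX2 scored 2.96, 2.58 and 3.75 in replicates 1, 2 and 3 (chromosome 5, 21054130 to 21055026), with its summit 463 bp from the gene. GA2OX8 scored 2.53, 2.63 and 2.76 with its summit in the gene (chromosome 4, 11304080 to 11304928). GA2OX1 (AT1G78440), which 2 lists cover, scored 2.88 and 3.02 in replicates 1 and 2 at 2758 bp, with AT1G78450 nearer. The mean of GA20OX2, 3.10 ± 0.60 (SD, n = 3 lists), was within the spread of GAI, and that of GA2OX8, 2.64 ± 0.12, was within the range of RGA.

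The genes of the GID1 receptors and of SLY1 had no region of all 3 lists within 3000 bp. Most genes had none, since 6.56% of all protein-coding genes had a region of all covering lists at that distance. These genes were singled out after their values had been seen. The receptor gene GID1A had peaks in replicates 1 and 3, with scores of 2.31 and 2.11 at 1700 and 1676 bp, and none in replicate 2. At GID1B, replicates 1 and 3 had peaks on the lower-coordinate side (scores 1.93 and 1.95) and replicates 1 and 2 on the higher (2.04 and 1.91), so that each list had a summit within 3000 bp but no one region held all 3. SLY1 had 1 peak, in replicate 1, with a score of 1.93. Of the 25 genes, 14 had a summit within 3000 bp in at least 1 list. Over all protein-coding genes that share was 35.5% at the wider limit of 5000 bp. The other 11 pathway genes had none within 3000 bp, the third receptor gene GID1C and SPY among them.

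Other GRAS genes, relatives of the DELLA genes without a DELLA domain, were compared in the same way. Of 15 that the gene table names, 3 (20%) had a region of all covering lists within 3000 bp, again against 6.56% of all protein-coding genes. HAM1, which maintains the shoot meristem, scored 2.87, 2.84 and 2.85 in replicates 1, 2 and 3 at 78 bp from the gene (chromosome 2, 18619404 to 18621495). SCL3, which promotes GA responses and opposes DELLA proteins, scored 2.64, 2.08 and 2.33 at 745 bp (chromosome 1, 18679909 to 18681678). SCL13 scored 2.42, 2.07 and 2.36 at 1757 bp, with AT4G17240 nearer. The mean scores of SCL3 and SCL13, 2.35 ± 0.28 and 2.28 ± 0.19 (SD, n = 3 lists), were close to those of RGA and RGL2, and that of HAM1, 2.85 ± 0.02, was within the range of GAI.

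**Figure D4:**
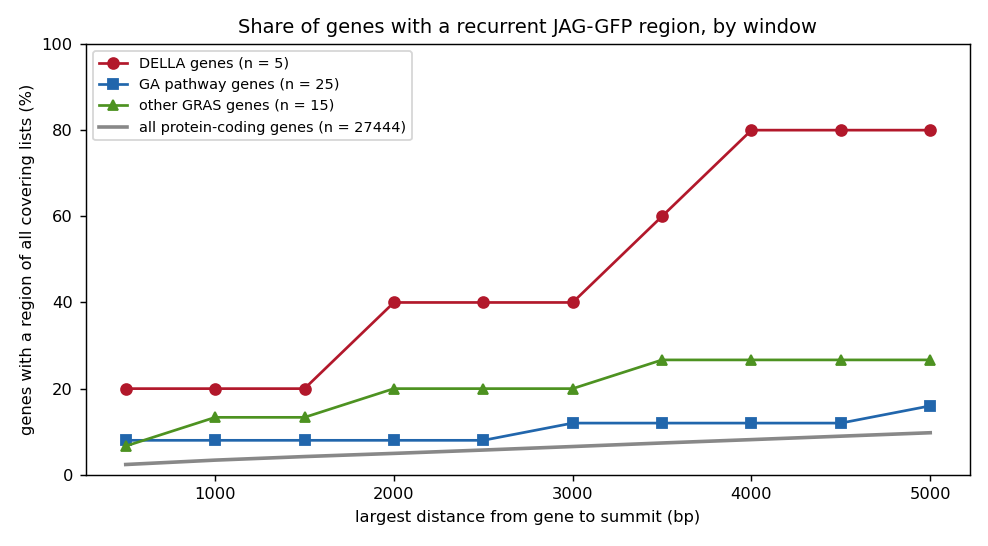
Percent of genes with a region of all covering lists on the y axis, against the largest distance in bp allowed between gene and summit on the x axis, for the 5 DELLA genes, 25 GA pathway genes, 15 other GRAS genes and all 27444 protein-coding genes. The DELLA line steps up as RGL2, RGA, GAI and RGL1 enter, from 1 gene at 500 bp to 4 at 4000 bp, while the line of all genes climbs to 9.76% at 5000 bp.

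The DELLA count grew in steps with the window, as the sites of RGL2, RGA, GAI and RGL1 entered in turn, and RGL3 never entered. It was 1 of 5 up to 1500 bp, where 2.39% (500 bp) to 4.23% (1500 bp) of all protein-coding genes had a region of all covering lists. It was 2 of 5 from 2000 to 3000 bp, against 4.97% to 6.56% of all genes. At 3500 bp it was 3 of 5, against 7.38% of all genes, and from 4000 to 5000 bp 4 of 5, against 8.17% to 9.76%. At 5000 bp the GA pathway and the other GRAS genes had 4 of 25 and 4 of 15. The groups hold few genes, and differences between them were not tested.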

How the data were processed

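Peaks were called by the authors and deposited as 1 list per replicate number with a score per peak. Per the file headers, each peak has a chromosome, start, end, width, summit position and score. The submitters' processing notes name CASAVA 1.8 and the build TAIR10. The sources used here do not give the peak caller, its threshold or the scale of the score. Per the labels' protocols, 1300 to 1500 mg of tissue per sample was fixed with formaldehyde and sonicated to fragments of about 500 bp.

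Peaks that overlapped by at least 1 bp were merged into regions. From each list the highest peak of a region was taken, and the median of their summits is the summit of the region. Genes past the last chromosome 1 peak of replicate 3 (1763 of them) were judged on 2 lists and the other 25681 on 3. Gene spans and names came from the RefSeq table of assembly TAIR10.1, on 5 nuclear chromosomes. Distances assume that it numbers them as TAIR10 does. The table has no strand, so windows of 3000 and 5000 bp reach both sides, and no site is called upstream or downstream. No sequence was used.

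The members and gene lists were chosen with earlier results of these data known. Genes named in the text are JAG, the members, genes within 3000 bp of their summits and pathway or GRAS genes with a region of all covering lists within 3000 bp. AT1G78450 and AT4G17240 are named because they lie nearer to such a region than the listed gene. GID1A, GID1B, GID1C, SLY1, SPY, GA2, SCR and SCL21 fall outside these rules and were named after their values had been seen. Of 27 GRAS loci listed, 12 that the table does not name as such were left out. All 25 GA pathway loci matched. Members are given by counts beside the share of all protein-coding genes, with no test. The wild-type samples were not analysed on their own here. Precision is limited by how many peaks each list holds. The counting was tested on simulated data with Python 3.11.15 and pandas 2.3.3.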

Additional observations from a re-analysis of the deposited data

How the results depend on the processing

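The count of 2 DELLA genes with a summit within 3000 bp in every covering list became 1 (RGL2) at 1000 bp and 4 at 5000 bp. The share of all protein-coding genes was 7.08% at 3000 bp, 3.44% at 1000 bp and 11% at 5000 bp. The DELLA count was 2 (RGA and RGL2) with the highest-scoring 50% of each list. Without replicate 1, 2 or 3 it was 2 as well, but leaving out a list can only keep or raise this count. With that 50% and a window of 5000 bp, it was 4. This setting and the intermediate windows were chosen after seeing the data. The share of all genes under the summit rule with that 50% is not given here. The 12 pairs within 5000 bp became 7 to 9 when a replicate was left out, out of 9 or 10 possible pairs (7 of 9 without replicate 2). Over all genes the share of pairs was 21.9% with all lists, and it is not given here for fewer lists. Over all genes, 1800 had a shared region within 3000 bp, 934 at 1000 bp and 1028 with the highest-scoring 50%. Without replicates 1, 2 and 3 in turn, the share of all genes with a region became 8.87%, 9.52% and 8.05%, against 6.56% with all lists. GA pathway genes then numbered 3 to 6 of 25. The 6 came without replicate 2 and added GID1A, GID1B and GA2, an enzyme gene judged there on replicate 1 alone. Other GRAS genes numbered 3 to 5 of 15, and the 5 came without replicate 1 and added SCR and SCL21. The mean score of GAI was 1.92 (1 list) with peaks within 3000 bp and 3.19 within 5000 bp. RGL1 had no peak within 3000 bp and so no such score. Of 51 alternatives, 43 left the value within 1.5 times a count or 1 SD of a mean. Some of the 43 could not move. The GAI score within 3000 bp rests on replicate 3 alone and that of RGL3 on replicate 2 alone, so neither has an SD. RGA, RGL2 and RGL3 have the same highest peaks within 3000 and 5000 bp. No paired analysis was possible because the lists come from 1 group and no test was made.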
